A study of Mus musculus with 34 samples.

Results

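The genes described here are the 10 antioxidant enzymes Sod1, Sod2, Cat, Prdx1 to Prdx6 and Txnrd1, taken by symbol from a table of 25899 distinct symbols read in 34 cumulus cell (CC) libraries. CCs are the somatic granulosa cells that surround the oocyte. All mice were C57BL/6J (B6) females, 8 weeks old when the protocols began, and were superovulated before collection. In the hyperleptinemia protocol, 16 L mice (n = 5) received 100 µg of leptin per day, split over 2 intraperitoneal injections for 16 days, and 16 C mice (n = 3) received saline. In the diet protocol, mice ate chow diet (CD, 11% of energy from fat) or high-fat diet (HFD, 58%; shares as the labels give them, which the study's methods put slightly differently) for 4 weeks (5 CD and 5 HFD libraries) or 16 weeks (6 CD and 7 HFD). A further 3 libraries came from mice named low weight gainers on HFD for 16 weeks, and the sources used here give no weight limit for that name. Each library was made from about 50 CCs, which the labels trace to 1 cumulus complex and the study's methods to 1 animal. C57BL/6J mice carry a deletion in Nnt, a mitochondrial NADPH-producing enzyme, and every group shares it.

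Superoxide dismutases turn superoxide into hydrogen peroxide, Sod1 mainly in the cytosol and Sod2 in the mitochondrial matrix. Catalase (Cat) breaks peroxide down in peroxisomes, and peroxiredoxins reduce it through a reactive cysteine: Prdx1 and Prdx2 mainly in the cytosol, Prdx3 in mitochondria, Prdx4 in the secretory pathway, Prdx5 in several compartments and the 1-cysteine enzyme Prdx6 mostly in the cytosol. Txnrd1, the cytosolic thioredoxin reductase, uses NADPH to recharge the thioredoxin that most peroxiredoxins depend on. Granulosa cells make steroids, a process that itself releases reactive oxygen, and several of these genes are known targets of the transcription factor NRF2, which binds antioxidant response elements.

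RefSeq promoter windows of 300 bases (250 before to 50 after the start, GRCm38.p6) were available for 9 of the 10 genes, and Prdx6 was the gene not matched. The antioxidant response element core, searched on both strands as TGACNNNGC, was present in at least 1 window of 3 of these 9 genes. It was present in 12.4% of all 32544 windows, a share per window that is not directly comparable with a count per gene. The 3 windows are shown because they hold this core for the gene that fell under leptin (Prdx1), for the reductase that serves it (Txnrd1) and for the most abundant gene per length (Sod1). Capitals mark the core, which lies on the minus strand of each window and is therefore shown as its reverse complement here. It begins 133 bases before the RefSeq start of Prdx1, 92 before that of Txnrd1 and 56 before that of Sod1. Txnrd1 has 3 windows in the table, and the core was found in 1 of them.
Prdx1 promoter, chr4:116685349-116685648, plus strand: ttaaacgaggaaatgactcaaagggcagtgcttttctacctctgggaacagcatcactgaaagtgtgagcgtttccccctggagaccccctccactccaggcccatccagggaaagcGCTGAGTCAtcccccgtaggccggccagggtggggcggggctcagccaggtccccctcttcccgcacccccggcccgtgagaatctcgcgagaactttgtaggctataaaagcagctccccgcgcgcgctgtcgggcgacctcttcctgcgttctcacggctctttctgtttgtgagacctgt
Txnrd1 promoter, chr10:82858956-82859255, plus strand: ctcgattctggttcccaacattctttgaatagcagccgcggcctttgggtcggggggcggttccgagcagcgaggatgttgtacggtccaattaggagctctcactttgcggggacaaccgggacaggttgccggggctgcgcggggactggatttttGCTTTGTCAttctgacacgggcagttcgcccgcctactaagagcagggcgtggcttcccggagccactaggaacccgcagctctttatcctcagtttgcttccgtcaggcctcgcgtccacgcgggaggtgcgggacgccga
Sod1 promoter, chr16:90220512-90220811, plus strand: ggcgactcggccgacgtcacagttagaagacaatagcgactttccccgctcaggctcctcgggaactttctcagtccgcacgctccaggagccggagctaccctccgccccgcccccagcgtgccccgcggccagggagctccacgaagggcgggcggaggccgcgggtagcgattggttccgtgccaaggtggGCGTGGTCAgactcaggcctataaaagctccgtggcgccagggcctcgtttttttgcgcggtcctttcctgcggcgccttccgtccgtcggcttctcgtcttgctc
A match describes these letters only, and no binding was measured. The GC box GGGCGG stood in at least 1 window of each of the 9 genes, and in 35.9% of all windows, again a share per window.

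Depth ran from 1104611 to 13207018 reads per library, and no gene among the 10 had fewer than 41 reads in any library, so none was limited by a count of 0. Of 12 granulosa and cumulus markers, 11 or 12 were detected in every library. One library stood apart: in 16 L replicate 18 all 10 oviduct epithelium markers were detected and summed to 36478 CPM (reads of the gene scaled to a common library size), against 129 to 1876 in the other 33 libraries. Its 5 red blood cell markers summed to 11252 CPM (0 to 1941 elsewhere), its 8 theca and stroma markers to 1832 CPM (0 to 56.5 elsewhere), and its cumulus expansion markers to 42.3 CPM (419 to 3757 elsewhere). Other leptin libraries carried some of these markers too: oviduct markers summed to 131, 1449, 1876 and 672 CPM in 16 L replicates 19, 20, 21 and 23, against 202 to 227 in 16 C, and the highest oviduct, blood and stroma sums after replicate 18 were all those of replicate 21. Oocyte markers were at 4.82 to 50.0 CPM in 16 L and 0.83 to 1.54 in 16 C, without overlap. Of these 10 markers 8 were detected in replicate 18 and 1 to 4 in the other leptin libraries. Only 1 of the 10 was tested, and edgeR called it higher in 16 L (log2 fold change 5.56). Macrophage and neutrophil markers were at 73.1 to 1189 and 115 to 754 CPM, with a positive log2 fold change for 8 of 9 markers and 0 called by edgeR. Replicates 1 and 2 of 16-week CD also stood apart, with 14.9% and 15.5% of reads on their 50 most abundant genes against 24.3% to 30.4% in the other 4, and so did 4-week HFD replicates 13 and 14, the deepest of their group. Oocyte markers summed to 366 CPM in 1 library of 4-week HFD, and to at most 50.0 CPM elsewhere. Levels below are CPM scaled by the trimmed mean of M-values (TMM) over all 34 libraries.

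Compared per kilobase of exon, the only scale on which genes can be set against each other, Sod1 had the highest mean level of the 10 in all 7 groups. It ranged from 1245 ± 135 CPM per kb (SD, n = 5) in 4-week CD to 3014 ± 2142 (n = 3) in 16 C. The major cytosolic peroxiredoxins Prdx1 and Prdx2 held the next 2 places. Prdx1 had the higher mean in every group except 16 L, where they stood at 331 ± 147 and 342 ± 41.7 CPM per kb (n = 5). In 4-week CD they stood at 339 ± 179 and 338 ± 68.1 (n = 5), and in neither of these groups did they differ beyond their spread. Prdx3 and Prdx4 lay close together, for example at 135 ± 46.7 and 157 ± 58.9 CPM per kb in 16-week HFD (n = 7), again within their spread. Sod2 and Txnrd1 were the lowest, at 16.9 ± 1.36 and 13.8 ± 3.87 CPM per kb in 16-week HFD. Reads were primed from the poly(A) tail and exon lengths came from GENCODE M21 models within the deposited gene bounds, so the order of genes on this scale depends on the gene model. The first place of Sod1 follows from its short exon length of 634 bases against 2544 for Prdx1, whose CPM before division by length was above that of Sod1 in 6 of the 7 groups.

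**Figure D1:**
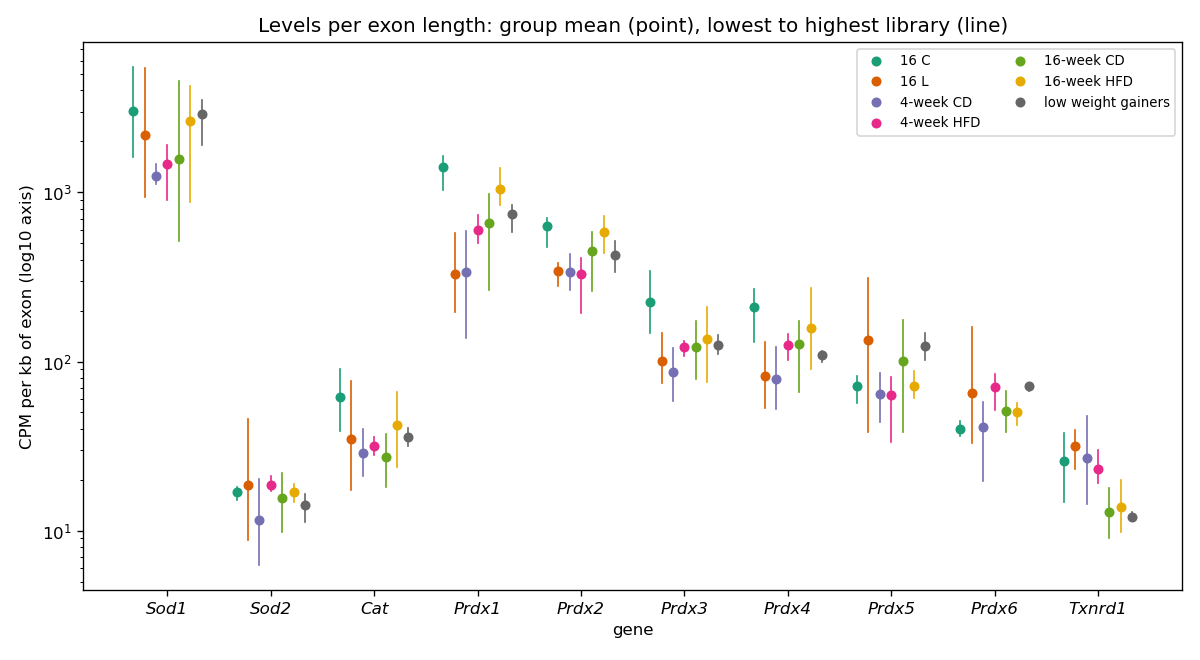
Level per kilobase of exon (log10 axis, CPM per kb) of the 10 genes in the 7 groups. Points are group means, and lines run from the lowest to the highest library. Sod1 is highest in every group, followed by Prdx1 and Prdx2, and Sod2 and Txnrd1 are lowest.

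The spread between libraries of a group differed widely among the 10 genes. Sod1 varied most, with a pooled within-group SD of 0.84 on the log2 CPM scale over the 34 libraries, and Prdx2 least, at 0.38. In 16-week CD the Sod1 level was 327 CPM in the lowest library, 455 at the median and 2880 in the highest, which is replicate 9. In 16 C it was 1029, 3475 and 1229 CPM in replicates 1, 2 and 3. Sod1 levels therefore overlapped between the groups of every comparison.

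**Figure D2:**
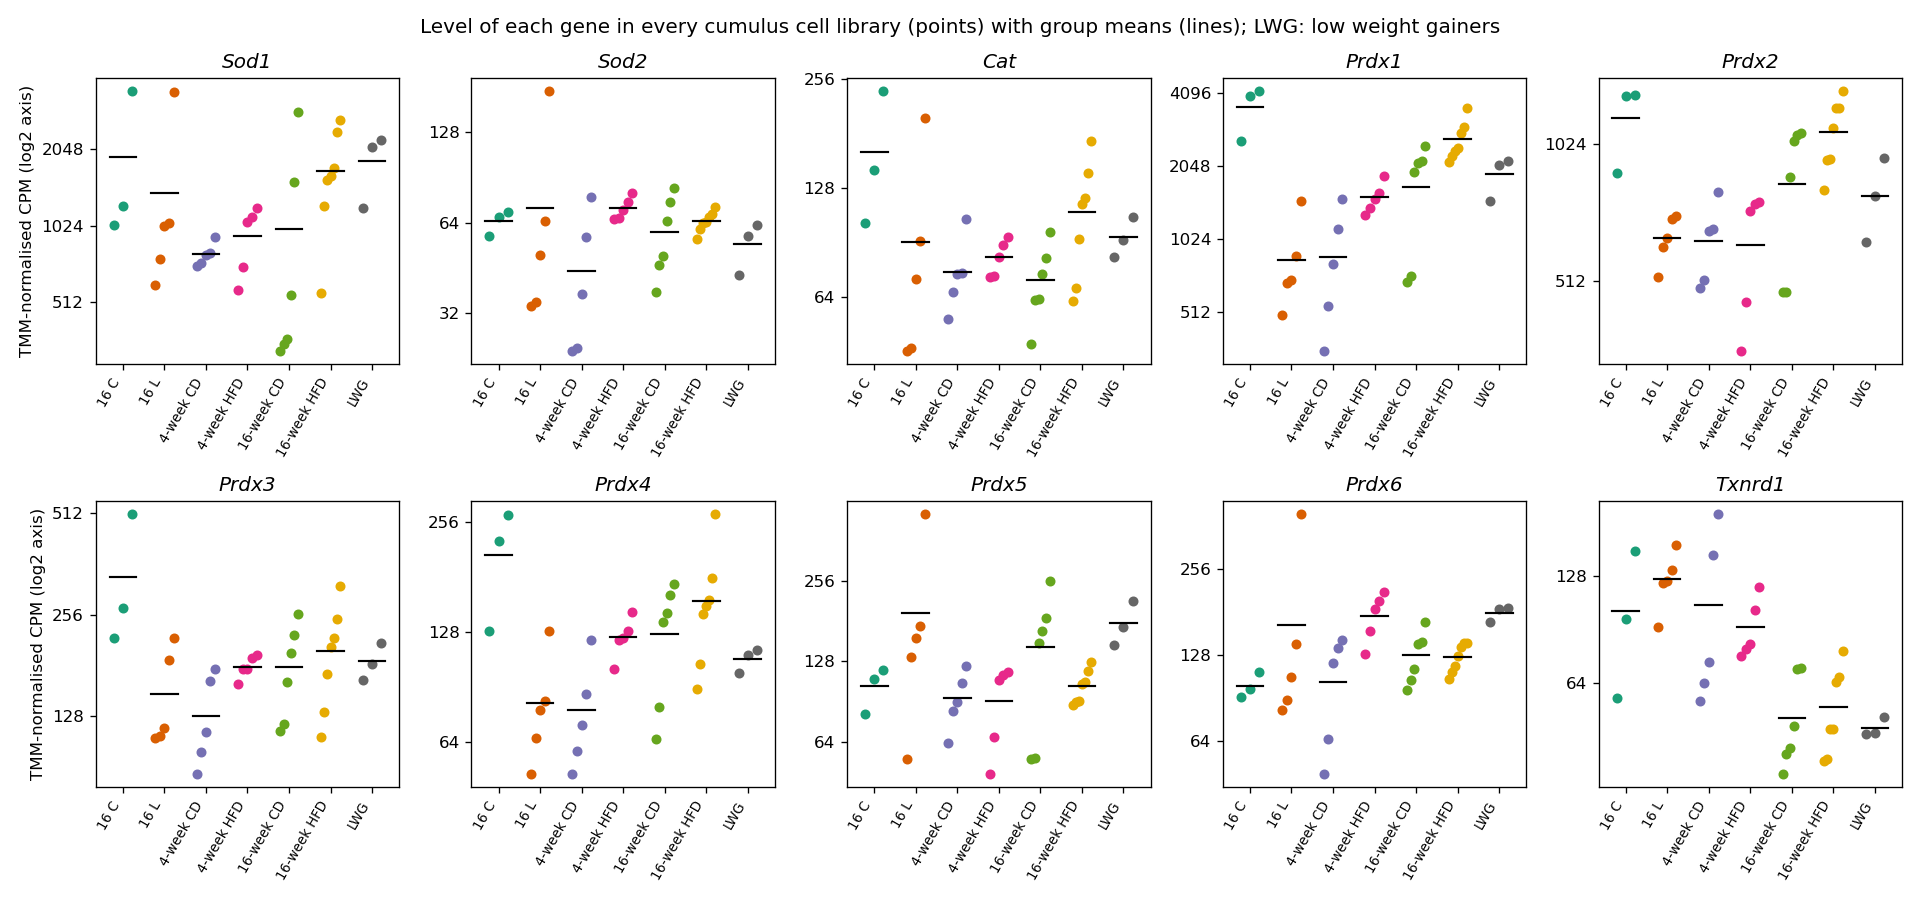
Level of each gene (CPM after TMM scaling, log2 axis) in every library, with 1 point per library and a line at the group mean; LWG stands for low weight gainers. Prdx1 in the 5 leptin libraries lies between 498 and 1468 CPM, below the 3 saline libraries at 2609 to 4174, and 1 leptin library is far above its group for Sod1, Sod2 and Prdx6.

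The first comparison asked how these genes differed after leptin injections. Prdx1 fell in 16 L: its level was 3985, 2609 and 4174 CPM in 16 C replicates 1, 2 and 3, and 1468, 871, 498, 673 and 694 CPM in 16 L replicates 18, 19, 20, 21 and 23. Prdx1 lies on chromosome 4 (chr4:116685544-116700822, plus strand, GRCm38). No leptin library reached the lowest saline library. The group means were 841 ± 375 CPM (SD, n = 5) and 3589 ± 855 (n = 3), and the fitted log2 fold change was -2.08 (SE 0.49), or 0.236 of the saline level with a 95% interval of 0.11 to 0.503. The adjusted p was 0.0366 after Benjamini-Hochberg correction over 11723 genes, in the quasi-likelihood test of edgeR. Prdx1 was the 1 gene of the 10 called here, beside 8.56% of all genes tested. The median fold change of the 10 genes was -0.64 and that of all genes 0.27.

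The call of Prdx1 rested on few libraries, although its direction did not. Its log2 fold change stayed between -2.47 and -1.93 when each of the 8 libraries was left out in turn, but in 6 of the 8 fits the edgeR adjusted p rose to between 0.0827 and 0.158. Those 6 fits called 0.23% to 1.28% of all genes, against 8.56% with every library. With read totals in place of TMM the log2 fold change of Prdx1 was -1.37 (SE 0.43, edgeR adjusted p 0.0341), on a scale where the median of all genes was 1.08. Relative to that median Prdx1 stood at -2.45, and at -2.36 on the TMM scale.

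Prdx2 (chr8:84969587-84974834, plus strand), the other abundant cytosolic peroxiredoxin, was the second gene whose TMM-scaled levels did not overlap, at 1310, 881 and 1302 CPM in the saline libraries and 521 to 711 CPM in the leptin libraries. Such separation held for 2 of the 10 genes (Prdx1 and Prdx2), and for 23.4% of all genes. The fitted log2 fold change of Prdx2 was -0.88 (SE 0.36, edgeR adjusted p 0.132), and on read totals it was -0.07, with overlapping libraries. Relative to the median of all genes Prdx2 stood at -1.15 on both scales. DESeq2 (-0.90, adjusted p 0.0139), limma-voom (-1.02, 0.000215) and the edgeR fit of all 34 libraries (-0.88, 0.0302) called Prdx2 lower. Of all genes these settings called 22.4%, 64.4% and 33.1%. Part of Prdx2 shares exon sequence with 2 genes on the opposite strand, Junb (173 bases) and Rnaseh2a (177 bases), whose log2 fold changes were 0.89 and -1.32 (edgeR adjusted p 0.35 and 0.0955). The library method does not mark strand, so reads in these stretches cannot be assigned.

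Mitochondrial Prdx3 and secretory Prdx4 lay on the same side. Prdx4 was at 227, 129 and 267 CPM in 16 C and at 78.2, 129, 65.4, 52.3 and 82.7 CPM in 16 L, so that the groups met only at the lowest saline and the highest leptin library. Its log2 fold change was -1.35 (SE 0.38, edgeR adjusted p 0.0542). Prdx3 was at 268, 218 and 507 CPM in 16 C and 111 to 219 CPM in 16 L, with a log2 fold change of -1.14 (SE 0.41, edgeR adjusted p 0.0968). Neither passed the threshold in this fit. DESeq2 called both Prdx4 (adjusted p 0.0074) and Prdx3 (0.0467), as did limma-voom and the edgeR fit of all 34 libraries. These settings called 22.4%, 64.4% and 33.1% of all genes. With RLE size factors edgeR called Prdx4 (adjusted p 0.0481) beside 8.62% of all genes. On read totals the log2 fold changes of Prdx4 and Prdx3 were -0.56 and -0.38. Relative to the median of all genes these are -1.64 and -1.46, against -1.62 and -1.41 on the TMM scale. By unadjusted p 4 of the 10 genes were below 0.05, namely Prdx1 to Prdx4, and all 4 were lower in 16 L, while 32.4% of all genes were below 0.05.

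Library 18, the one with the most oviduct and blood marker RNA, held the highest leptin level of 7 of the 10 genes. Sod1 was at 3457 CPM there and at 595 to 1047 CPM in the other 4 leptin libraries, Sod2 at 175 against 33.7 to 64.9, and Cat at 200 against 45.3 to 91.4. With all libraries Cat had a log2 fold change of -0.81 (SE 0.54, edgeR adjusted p 0.322) and Sod1 one of -0.47 (SE 0.71, 0.668). Without this library edgeR called 6 of the 10 genes, all lower in 16 L: Sod1 (-1.28), Cat (-1.42), Prdx1 (-2.47), Prdx2 (-0.94), Prdx3 (-1.40) and Prdx4 (-1.41), on the log2 scale and with adjusted p from 0.000277 for Prdx1 to 0.0488 for Sod1. In the same fit Prdx6 moved from 0.72 to -0.02 and Sod2 from 0.17 to -0.57, neither called. The share of all genes called in that fit was 41.8%. Leaving out 16 C replicate 3 instead moved Cat to -0.44 (edgeR adjusted p 0.699) and Prdx3 to -0.71 (0.379). This fit does not remove such RNA from 16 L, since replicates 20, 21 and 23 remain in it. Over all 5 leptin libraries, 8 of 8 tested oviduct markers had a positive log2 fold change, with a median of 5.74, 7 with an unadjusted p under 0.05 and 0 called by edgeR. In replicate 19, whose oviduct sum of 131 CPM was below the saline range, Prdx1 stood at 871 CPM, under the lowest saline level of 2609. That library was itself unusual, with 4.71% of its reads mitochondrial. The share was 0.44% to 0.65% in the other leptin libraries and 0.33% to 0.63% in 16 C. The part of other cell types' RNA in the remaining values was not tested.

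The fitted values of Prdx5, Prdx6 and Txnrd1 were above 0 in 16 L, and edgeR called none of them on the TMM scale, whereas limma-voom called Prdx5 (0.59, adjusted p 0.0204), beside 64.4% of all genes. Prdx5 stood at 81.7, 119 and 110 CPM in 16 C and 451, 55.6, 132, 156 and 173 CPM in 16 L replicates 18, 19, 20, 21 and 23, with a log2 fold change of 0.91 (SE 0.61, edgeR adjusted p 0.319). On read totals the value of Prdx5 was 1.61 (edgeR adjusted p 0.0394), or 0.53 relative to the median of all genes, and without library 18 on the TMM scale it was 0.22 (0.659). Prdx6 stood at 111, 97.1 and 91.0 CPM in 16 C and 398, 139, 81.9, 88.8 and 107 CPM in 16 L, with a log2 fold change of 0.72 (SE 0.57, edgeR adjusted p 0.399). On read totals Prdx6 was at 1.38 (edgeR adjusted p 0.0443), or 0.30 relative to the median of all genes. The 3 genes called on that scale were thus Prdx1, lower, and Prdx5 and Prdx6, higher, beside 34.4% of all genes called (3652 higher and 383 lower). The 2 genes whose libraries did not overlap on it were Prdx1 and Prdx6, and 3668 of all 11723 genes did not overlap there. On the TMM scale the leptin values of Prdx5 and Prdx6 spread over both sides of the saline range. Txnrd1 stood at 58.3, 96.8 and 150 CPM in 16 C and 91.9 to 156 in 16 L, a log2 fold change of 0.29 (SE 0.37, edgeR adjusted p 0.605, 95% interval -0.53 to 1.12). The 3 genes with the antioxidant response element core, Prdx1, Txnrd1 and Sod1, thus had log2 fold changes of -2.08, 0.29 and -0.47, on both sides of 0.

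The libraries of the 2 groups also differed in ways that bear on scaling. The 50 most abundant genes took 30.7% to 34.6% of reads in 16 C and 13.4% to 19.8% in 16 L, TMM factors were 0.64 to 0.74 and 0.87 to 1.32, and summed cumulus expansion markers were 1647 to 2545 and 42.3 to 955 CPM. None of these ranges overlapped, so a change of cell state, of RNA content and of the genes themselves cannot be told apart here. In such bulk samples, fewer cells of a type and less RNA per cell also cannot be told apart.

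**Figure D3:**
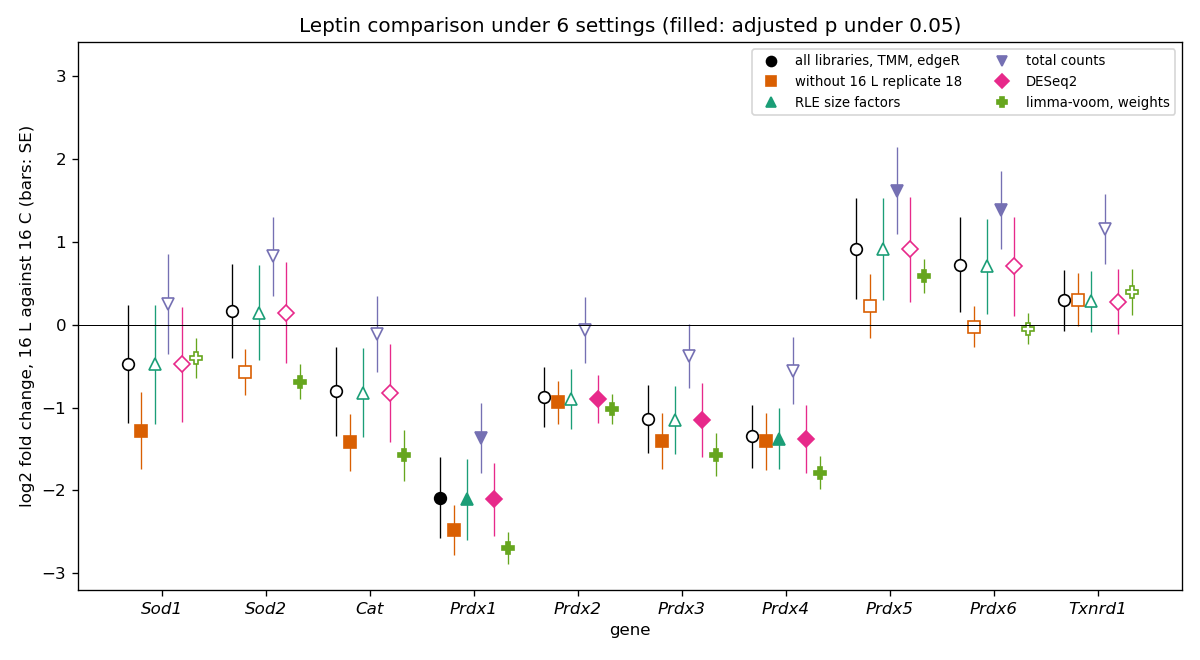
Log2 fold change of each gene in 16 L against 16 C, with its SE, under 6 settings. Filled marks have an adjusted p under 0.05. Prdx1 is filled under all 6, from -2.70 to -1.37, whereas Sod1, Sod2 and Prdx6 change sign between settings.

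The partners of these enzymes moved in both directions under leptin. Of 88 genes of related pathways (thioredoxin system, superoxide dismutase partners, glutathione peroxidases, NRF2 targets, NADPH supply, peroxisome and oxidant sources), 80 were tested, and 10 rose and 5 fell, beside 8.56% of all genes. Without 16 C replicate 1 edgeR called 0 of all genes higher and 30 lower, and without 16 C replicate 3 it called 0 and 31. All 10 rises, including those of Srxn1 and Gpx3 below, thus lost their call when 1 of these saline libraries was left out. With every library 528 genes were called lower, and whether the 5 falls kept their call in these fits was not examined. Sulfiredoxin (Srxn1), which restores overoxidised peroxiredoxins, rose by a log2 fold change of 1.70 (SE 0.43, edgeR adjusted p 0.0431), from 4.41 ± 0.509 CPM in 16 C to 14.6 ± 3.27 in 16 L. Idh1, a cytosolic enzyme that makes NADPH, fell by 4.23 on the log2 scale (SE 0.81, edgeR adjusted p 0.0231), from 26946 ± 3103 to 1454 ± 1370 CPM. The secreted glutathione peroxidase Gpx3 rose (2.94, SE 0.72, edgeR adjusted p 0.0402), while Gpx8 of the endoplasmic reticulum (-1.54) and glutathione synthetase Gss (-1.20) fell.

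Among 24 regulators and targets of NRF2, 23 were tested, 5 rose (Srxn1, Mafk, Nfe2l1, Tkt and Abcc1) and 1 fell (Bach1, a repressor of these targets, -1.21, edgeR adjusted p 0.0449). The 5 rises lost their call without 16 C replicate 1 and also without 16 C replicate 3. Whether the fall of Bach1 kept its call in these fits was not examined. NRF2 itself (Nfe2l2) had a log2 fold change of 0.18 (edgeR adjusted p 0.826), its inhibitor Keap1 one of 0.34 (0.588), thioredoxin Txn1 one of 0.24 (0.721) and the thioredoxin-binding Txnip one of 1.63 (0.132). These 4 did not pass the threshold. The peroxisome list, the compartment of catalase, gave 1 rise (Pex6) and 1 fall (Pex16) among 16 tested, and the oxidant sources gave 1 rise, xanthine dehydrogenase Xdh (4.06, SE 0.96, edgeR adjusted p 0.0372). The rises of Pex6 and Xdh lost their call in the same fits as the NRF2 targets, and the fall of Pex16 was not examined in them.

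The second comparison asked what 4 weeks of HFD did. None of the 10 genes passed the threshold in edgeR (smallest adjusted p 0.118), beside 4.26% of all 11727 genes tested. Sod2, Prdx1, Prdx4 and Prdx6 had an unadjusted p under 0.05, all with the higher mean in 4-week HFD, while 24.3% of all genes were below 0.05. DESeq2 called 0 of the 10 and 11.0% of all genes, and limma-voom with sample quality weights called 6 of the 10 and 34.5% of all genes. In no case were the libraries of the 2 diets apart, beside 6.61% of all genes. The median fold change of the 10 genes was 0.34 against -0.01 for all genes.

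Prdx1 illustrates the pattern, at 1120, 541, 802, 352 and 1495 CPM in 4-week CD replicates 1, 2, 7, 8 and 11, and 1372, 1495, 1592, 1284 and 1867 CPM in 4-week HFD replicates 3, 4, 5, 13 and 14. Of the 5 chow libraries 4 lay below every HFD library, and replicate 11 lay among them. The log2 fold change of Prdx1 was 0.82 (SE 0.34, edgeR adjusted p 0.149). Mitochondrial Sod2 followed the same order, at 37.2, 24.4, 57.2, 23.9 and 77.8 CPM in CD and 65.7 to 80.1 in HFD, a log2 fold change of 0.68 (SE 0.29, edgeR adjusted p 0.16). For both genes the chow libraries were the more scattered ones.

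Prdx4 stood at 86.7, 60.2, 71.0, 52.2 and 121 CPM in CD and 101 to 145 CPM in HFD (log2 fold change 0.65, SE 0.24, edgeR adjusted p 0.118). Prdx6, which also acts on phospholipid peroxides, stood at 120, 48.8, 135, 64.7 and 145 CPM in CD and 129 to 212 in HFD (0.76, SE 0.29, edgeR adjusted p 0.123). Chow replicate 11 held the highest 4-week CD level of 6 of the 10 genes, and without it edgeR called 3 as higher in HFD: Sod2 (0.97, adjusted p 0.0246), Prdx1 (1.10, 0.0371) and Prdx4 (0.85, 0.0237). That fit called 14.4% of all genes. Sod1 (0.21), Cat (0.12), Prdx2 (-0.05), Prdx5 (-0.06) and Txnrd1 (-0.22) had small log2 fold changes, and Prdx3 one of 0.48 (SE 0.23, edgeR adjusted p 0.22).

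Sod1, Sod2, Prdx2, Prdx5, Prdx6 and Txnrd1 were split within 4-week HFD. Sod1 was at 1058, 1200 and 1109 CPM in replicates 3, 4 and 5 and at 703 and 572 CPM in replicates 13 and 14, and Txnrd1 went the other way, at 76.2 to 82.7 CPM against 103 and 119. In the same order Prdx2 was at 730, 762 and 754 CPM against 460 and 358 CPM, and Prdx5 at 109, 117 and 114 CPM against 67.0 and 48.7 CPM. Prdx6 was at 186, 198 and 212 CPM against 129 and 155, and Sod2 at 70.5, 80.1 and 75.2 CPM against 66.5 and 65.7. The last 2 are the deep libraries named above, with 1.99% and 1.83% of reads on ribosomal protein genes against 2.96% to 3.26% in the other 3. Without them the log2 fold changes of Prdx2 and Prdx5 went from -0.05 and -0.06 to 0.27 and 0.29, none of them called. What made these libraries differ was not tested.

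Of the 88 pathway genes, 79 were tested at 4 weeks, with 3 rises and 3 falls, beside 4.26% of all genes. Without 4-week CD replicate 8 edgeR called 0 of all genes higher and 8 lower, so the 3 rises lost their call in that fit. With every library 359 genes were called lower, and whether the 3 falls kept their call without replicate 8 was not examined. Txnip, the inhibitor of thioredoxin, rose by a log2 fold change of 1.58 (SE 0.42, edgeR adjusted p 0.0452), from 33.8 ± 18.2 CPM in CD to 104 ± 53.0 in HFD. The peroxisome assembly gene Pex3 (1.22, adjusted p 0.0302) and mitochondrial malic enzyme Me2 (0.85, 0.0468) rose too, while the NADPH oxidase Nox1 (-1.75, 0.029), the metal transporter Slc39a14 (-1.13, 0.0242) and Maff (-1.36, 0.0408) fell, all in edgeR. Srxn1, Nfe2l2, Keap1 and Txn1 had log2 fold changes of -0.14, 0.34, -0.16 and 0.21, and none was called.

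After 16 weeks of HFD 0 of the 10 genes were called in edgeR, beside 0.0276% of all 10861 genes, and 1 had an unadjusted p under 0.05 (25.3% of all genes); DESeq2 and limma-voom also called 0, beside 9.72% and 0.046% of all genes. The gene under that unadjusted threshold was Cat, at 47.3 CPM in the lowest, 68.6 at the median and 96.8 in the highest 16-week CD library, and at 62.2, 116 and 172 CPM in 16-week HFD. Its ranges overlapped, and its log2 fold change was 0.63 (SE 0.25, edgeR adjusted p 0.136). The libraries of the 2 diets overlapped for all 10 genes, whereas they were apart for 0.994% of all genes.

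Sod1 and Prdx1 had similar fold changes with larger errors. Sod1 was at 327, 455 and 2880 CPM (lowest, median, highest) in CD and 557, 1604 and 2690 in HFD, a log2 fold change of 0.76 (SE 0.52, edgeR adjusted p 0.35). Without 16-week CD replicate 9, the library at 2880 CPM, Sod1 rose by 1.45 (adjusted p 0.0329) and was the 1 gene of the 10 called, in a fit that called 20.5% of all genes. Prdx1 was at 677, 2026 and 2471 CPM in CD and 2136, 2424 and 3547 in HFD, a log2 fold change of 0.67 (SE 0.33, edgeR adjusted p 0.213). Prdx5 (-0.46) and Prdx2 (0.38) bounded the other genes, with Sod2 at 0.13, Prdx3 at 0.17, Prdx4 at 0.31, Prdx6 at -0.02 and Txnrd1 at 0.08.

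In 16-week CD replicates 1 and 2, the chow libraries named above, 5 of the 10 genes were below all other libraries of the group, namely Prdx1 to Prdx5. Prdx1 was at 677 and 720 CPM there and at 1944 to 2471 CPM in the other 4, and Prdx5 at 55.6 and 56.0 CPM against 150 to 256. Txnrd1 went the other way, at 70.1 and 70.6 CPM against 35.7 to 48.7. Their TMM factors were 1.37 and 1.33, against 0.76 to 0.99 in the others. Without both libraries the count of called genes was still 0, but the log2 fold changes went to 0.34 for Prdx1, 0.37 for Sod1, 0.15 for Prdx2, -0.81 for Prdx5 and 0.44 for Txnrd1, with edgeR adjusted p of 0.298 or more. No pathway gene of 76 tested was called at 16 weeks. Srxn1 had a log2 fold change of -0.91 (SE 0.29, edgeR adjusted p 0.0782), Txnip of 0.59 and Nfe2l2 of -0.24, the last 2 with adjusted p of 0.342 and 0.5.

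**Figure D4:**
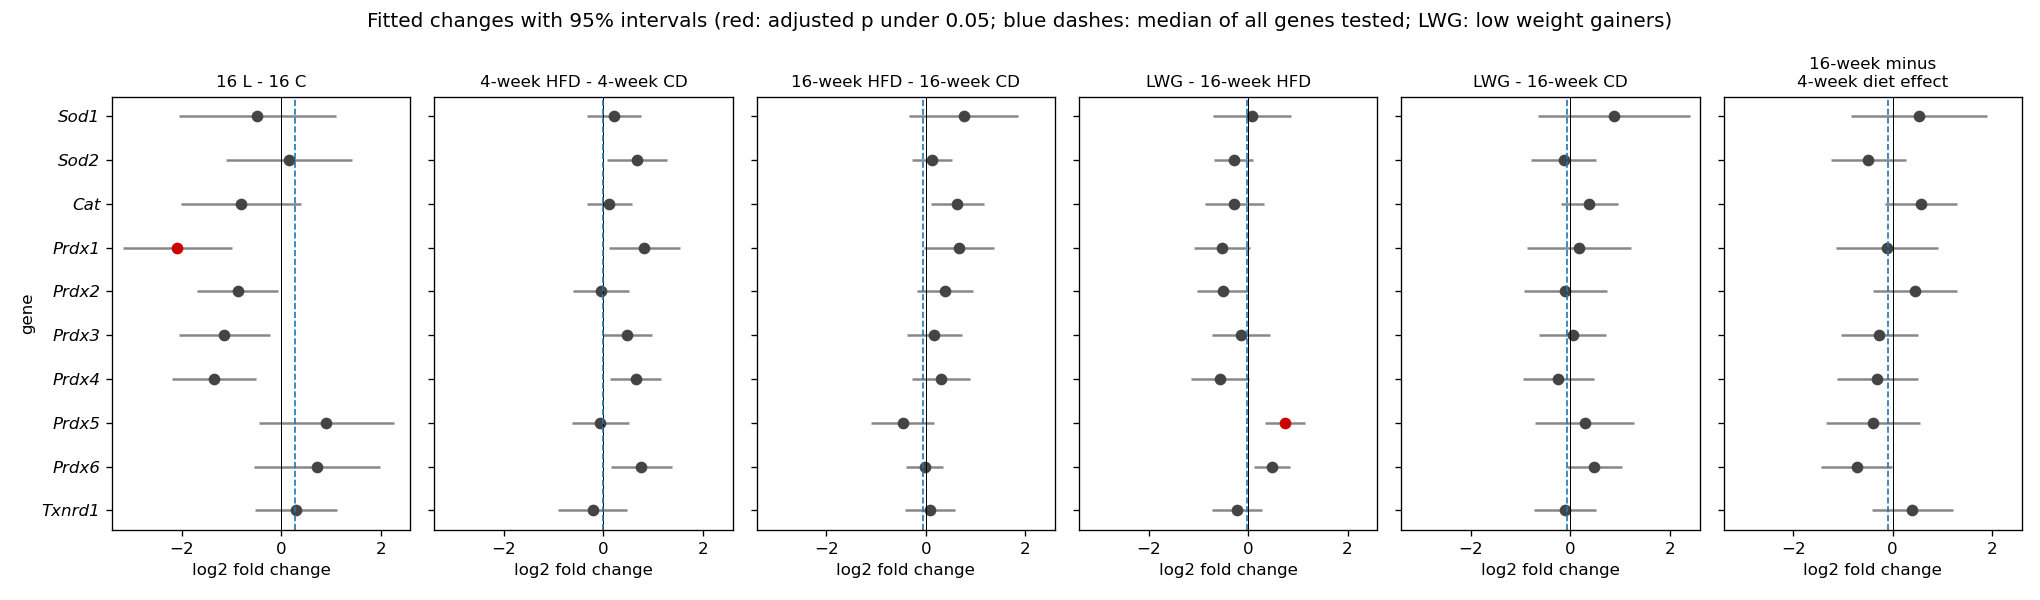
Fitted log2 fold change of the 10 genes with 95% intervals in the 5 comparisons and for the 16-week diet effect minus the 4-week one; LWG stands for low weight gainers. Red points passed the threshold (Prdx1 in the leptin comparison, Prdx5 in low weight gainers against 16-week HFD), and the dashed line is the median of all genes tested.

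The difference between the diet effects at 16 and 4 weeks was tested directly. Of the 10 genes 0 were called in edgeR, beside 3.66% of all 12235 genes, and 1 had an unadjusted p under 0.05 (23.4% of all genes); DESeq2 called 0 beside 9.52% of all genes and limma-voom 2 (Prdx5 and Prdx6) beside 19.2%. The gene with the low unadjusted p was Prdx6, with a log2 fold change of 0.76 at 4 weeks and -0.02 at 16 weeks and a difference of -0.73 (SE 0.35, edgeR adjusted p 0.205). Its 95% interval ran from -1.44 to -0.01. Cat differed by 0.57 (SE 0.35, edgeR adjusted p 0.323) in the opposite direction. The remaining differences were 0.53 for Sod1, -0.49 for Sod2, -0.12 for Prdx1, 0.45 for Prdx2, -0.27 for Prdx3, -0.31 for Prdx4, -0.40 for Prdx5 and 0.40 for Txnrd1. Of 82 pathway genes tested, the diet effect was lower at 16 than at 4 weeks for Hsd17b4, a peroxisomal fatty acid enzyme (-1.20, edgeR adjusted p 0.0461), and higher for Nox1 (2.14, 0.0494).

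Low weight gainers were compared with the other mice fed HFD for 16 weeks. Prdx5 rose, at 172, 148 and 214 CPM in low weight gainer replicates 21, 22 and 23, against 87.7 CPM in the lowest, 105 at the median and 127 in the highest 16-week HFD library. Every low weight gainer lay above every HFD library. The means were 178 ± 33.6 (SD, n = 3) and 104 ± 15.2 CPM (n = 7), a log2 fold change of 0.74 (SE 0.19) or 1.67-fold, with a 95% interval of 1.26 to 2.21 and an edgeR adjusted p of 0.0139. Prdx5 was the 1 gene of the 10 called, beside 20.7% of all 11258 genes tested.

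The call held in 9 of 10 fits that left out 1 library, with log2 fold changes of 0.59 to 0.86, and was lost without low weight gainer replicate 23 (adjusted p 0.113). It was lost as well when all 34 libraries shared 1 estimate of spread (0.77, SE 0.40, edgeR adjusted p 0.282). Prdx5 (chr19:6906697-6910106, minus strand) overlaps Trmt112, a methyltransferase partner on the opposite strand, over 409 exon bases, and reads there cannot be assigned without strand. Trmt112 had a log2 fold change of 0.48 (SE 0.25, edgeR adjusted p 0.173), at 42.7 ± 12.3 CPM in low weight gainers and 29.9 ± 7.35 in 16-week HFD.

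Prdx6 (chr1:161240112-161251219, minus strand) was the other gene whose libraries did not overlap, at 186, 167 and 186 CPM in low weight gainers and 106, 127 and 141 CPM (lowest, median, highest) in 16-week HFD. Non-overlap was found for 2 of the 10 genes and for 20.4% of all genes. The log2 fold change of Prdx6 was 0.48 (SE 0.18, edgeR adjusted p 0.0595), just outside the threshold. DESeq2 and limma-voom called it as well as Prdx5, beside 25.3% and 29.2% of all genes.

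The other cytosolic and secretory peroxiredoxins lay on the opposite side without passing the threshold. Prdx1 had a log2 fold change of -0.52 (SE 0.27, edgeR adjusted p 0.164), at 2145, 2071 and 1475 CPM in low weight gainers and 2136, 2424 and 3547 CPM (lowest, median, highest) in 16-week HFD. Prdx2 had one of -0.50 (SE 0.24, 0.145) and Prdx4 one of -0.57 (SE 0.28, 0.15), in the same test. Sod1 (0.08), Sod2 (-0.29), Cat (-0.27), Prdx3 (-0.15) and Txnrd1 (-0.23) lay nearer to 0. The median of the 10 genes was -0.25 and that of all genes -0.03.

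Of 79 pathway genes tested in this comparison 12 rose and 4 fell, a share close to the 20.7% of all genes. The share of all genes called fell to 5.19% without low weight gainer replicate 23. Mitochondrial thioredoxin reductase Txnrd2 rose (0.97, SE 0.23, edgeR adjusted p 0.00776), from 26.3 ± 6.67 CPM to 53.1 ± 11.0, whereas cytosolic Txnrd1 had a log2 fold change of -0.23 (SE 0.24, edgeR adjusted p 0.514). Whether the 2 reductases differed in their change was not tested. Glrx5, a mitochondrial glutaredoxin (0.70, adjusted p 0.0223), glutathione reductase Gsr (0.84, 0.0346), Gpx3 (1.12, 0.0274) and Slc25a39, a mitochondrial carrier for glutathione (1.48, 0.000375), rose as well. Gpx1 (-0.86, 0.0249), Gpx8 (-1.09, 0.00809) and Bach1 (-1.13, 0.0264) fell. Among peroxisome genes Pex5 (0.69, adjusted p 0.0272), Pex6 (0.88, 0.0363) and Pex14 (1.26, 0.0289) rose, and Cat itself had a log2 fold change of -0.27 (SE 0.28, adjusted p 0.507). Nfe2l2 (-0.60, adjusted p 0.0765), Txn1 (-0.77, 0.0614), Srxn1 (0.68, 0.0921), Txnip (-0.69, 0.299) and Keap1 (-0.02, 0.971) did not pass, all in edgeR.

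Summed granulosa and cumulus markers were 5681 to 6448 CPM in low weight gainers and 2925 to 4190 in 16-week HFD, without overlap, and their part in the Prdx5 value was not tested. Cyp11a1 alone made up 4616 ± 334 and 1858 ± 450 CPM (n = 3 and 7) of these sums, and 7 of the 12 markers had a negative log2 fold change, with a median of -0.68. Of the 12 markers tested 2 rose, among them Cyp11a1, which starts steroid synthesis (1.28, edgeR adjusted p 0.00358), and 2 fell, among them the inhibin subunit Inhba (-1.07, adjusted p 0.011). The share of mitochondrial reads was 0.34% to 0.61% in low weight gainers and 0.79% to 1.53% in 16-week HFD, also without overlap, and its part was not tested either. Summed cumulus expansion markers were 1066 to 1231 CPM and 1141 to 3757 CPM, which overlap, and 3 of the 5 tested expansion markers fell.

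Against 16-week CD, the low weight gainers differed in 0 of the 10 genes in edgeR, beside 0.00861% of all 11620 genes, with 0 at an unadjusted p under 0.05 (11.2% of all genes), and DESeq2 and limma-voom called 0 beside 2.15% and 1.69% of all genes. No gene of the 10 had libraries that did not overlap, beside 7.52% of all genes. The largest fold changes were those of Sod1 (0.88, SE 0.70) and Prdx6 (0.48, SE 0.25), with edgeR adjusted p of 0.666 and 0.511. Prdx5, called against 16-week HFD, had a log2 fold change of 0.29 (SE 0.46, edgeR adjusted p 0.859) here, and 16-week CD had a mean of 145 ± 77.9 CPM and ran from 55.6 to 256. Cat had a value of 0.38, Prdx1 of 0.17 and Prdx3 of 0.04, whereas Sod2 (-0.14), Prdx2 (-0.10), Prdx4 (-0.24) and Txnrd1 (-0.11) were below 0. This comparison shares its low weight gainers with the preceding one. No pathway gene of 82 tested was called.

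Across the 7 groups each gene's highest mean TMM-scaled level was 1.62 to 4.27 times its lowest. The ratio was largest for Prdx1, from 841 CPM in 16 L to 3589 in 16 C, and smallest for Sod2, from 44.1 CPM in 4-week CD to 71.7 in 16 L. On read totals the order was another: the ratio was 2.61 for Prdx1, and 3.54 for Txnrd1, 3.02 for Prdx5 and 2.94 for Prdx6. In 6 of the 10 genes the highest mean was that of 16 C, the group with the lowest TMM factors, and in 4 of the 10 on read totals. Txnrd1 stood at 51.3 ± 15.3 (n = 6), 54.8 ± 15.4 (n = 7) and 48.1 ± 2.95 CPM (n = 3) in the 16-week groups and at 92.1 to 125 CPM in means of the other 4 groups. Levels were not tested between the 4-week, 16-week and leptin experiments, so these values describe levels only.

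After each group's mean was removed, the 10 genes formed 45 pairs whose log2 levels were correlated over the 34 libraries, as a description without a test. In 37 of the pairs Pearson's r was positive, with a median of 0.35. Sod2 and Prdx6 were closest (r = 0.91, n = 34, and 0.84 without 16 L replicate 18), followed by Prdx1 with Prdx4 (0.78) and with Prdx3 (0.74). Txnrd1 went against the rest, with a negative r in 8 of its 9 pairs, down to -0.44 with Prdx2. All points of a pair come from the same libraries and share depth, scaling and cell composition.

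**Figure D5:**
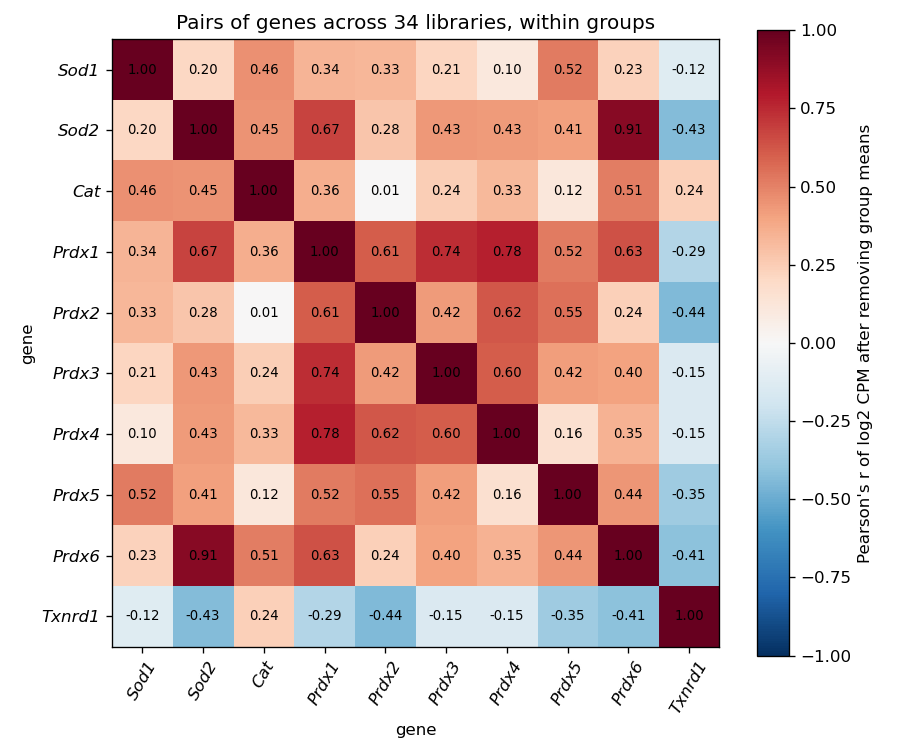
Pearson's r of log2 CPM between each pair of the 10 genes over 34 libraries, after group means were removed. Most cells are positive, up to 0.91 for Sod2 with Prdx6, and 8 of the 9 cells of Txnrd1 with another gene are negative.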

How the data were processed

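RNA from about 50 CCs per library was amplified with an oligo(dT) primer (Smart-seq2) and sequenced. The authors trimmed the reads with Trim Galore 0.4.2, aligned them to GRCm38 with HISAT2 2.0.5 (versions from the submitters' processing notes) and deposited raw read counts per gene for 34 libraries. The counting program and its strand setting are not given in the sources used here. No unassigned column of values was left (0).

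Each comparison was fitted with edgeR 4.0.16 (TMM scaling, filterByExpr, quasi-likelihood test) in R 4.3.3 on the libraries of its groups only, and on the 4 diet groups for the difference between diet effects. Benjamini-Hochberg adjustment ran over all genes tested with a threshold of 0.05, and the scripts were tested on simulated data. All 10 genes passed the filter in all 6 fits. Alternatives were DESeq2 1.42.0, limma-voom (limma 3.58.1) with sample quality weights, RLE size factors, read totals, no filter, a minimum of 10 counts per library, a single fit of all 34, and leaving out each library. Of 72 pairs of libraries within groups, 0 held identical values. No label says that libraries of a group came from separate animals in every case, so p-values measure the spread between these libraries.

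The 10 genes and the pathway and marker lists were chosen with earlier results of these data known. All 10 genes are named in every comparison. Of each pathway list at most 4 rises and 4 falls were eligible to be named, those with the largest changes past the threshold, and Nfe2l2, Keap1, Txn1, Txnip and Srxn1 are given whether or not they passed. Levels are counts per TMM-scaled library (CPM), and with 3 to 7 libraries per group precision is limited by the number of libraries. Promoters are from RefSeq (GRCm38.p6). One result of the peroxisome list is not reported here.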

Additional observations from a re-analysis of the deposited data

Results flagged for a closer look

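In 16 L, 1 library lay far from the other 4 for 3 of the 10 genes, and it was replicate 18 each time. The gap to the nearest library, as a share of the group's whole range, was 0.842 for Sod1 (3457 CPM, nearest 1047), 0.818 for Prdx6 (398 CPM, nearest 139) and 0.779 for Sod2 (175 CPM, nearest 64.9), above Dixon's critical value for 5 samples. The 10 genes gave 50 such groups of 4 to 10 libraries, of which 3 were marked in this way, and chance marks about 1 in 20, or 2.5 of 50. The 3 marks are not independent, since all came from replicate 18, so setting 3 beside 2.5 decides nothing about chance. The library's oviduct markers summed to 36478 CPM, against 131 to 1876 CPM in the other 4 leptin libraries, and their part in these levels was not tested.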

How the results depend on the processing

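The number of the 10 genes called in 16 L against 16 C was 1 in the edgeR fit and 4 with DESeq2, 7 with limma-voom, 2 with RLE size factors, 3 with read totals, 4 with all 34 libraries in 1 fit, and 0 to 6 when 1 library was left out. Of all genes these fits called 8.56%, and 22.4%, 64.4%, 8.62%, 34.4%, 33.1% and 0.23% to 41.8% in the same order. At 4 weeks of HFD the number of the 10 genes called was 0, and 6 with limma-voom and 0 to 3 without 1 library. Fits without 1 library called 0.067% to 14.4% of all genes there. At 16 weeks the number of the 10 genes called was 0, and 0 to 1 without 1 library. For low weight gainers against 16-week HFD it was 1, and 2 with DESeq2, 2 with limma-voom, 2 with read totals, 2 with at least 10 counts, 0 with all 34 libraries in 1 fit and 0 to 1 without 1 library. The shares of all genes called there were 20.7%, and 25.3%, 29.2%, 19.4%, 24.6%, 3.68% and 5.19% to 24.5% in the same order. The difference between diet effects gave 0, and 2 with limma-voom. Over all genes the leptin comparison called 1004, and 2628 with DESeq2, 7552 with limma-voom, 4035 with read totals and 4384 with all 34 libraries. The count was 504 with no filter, 912 with at least 10 counts and 1010 with RLE size factors. Leaving out 1 library at a time gave counts as low as 30 and as high as 4635. The edgeR fit of every leptin and saline library called 476 higher and 528 lower, and 3652 and 383 with read totals. The 16-week diet comparison called 3, and 1056 with DESeq2, 1646 with read totals and 1258 with all 34 libraries. Its count was 5 with limma-voom, 13 with no filter, 0 with at least 10 counts, and 1 to 2222 with 1 library left out.

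Of 1200 refitted values of the 10 genes 57 changed sign, 31 of them without 1 library, 0 for a gene called in the edgeR fit, and 1 with an adjusted p under 0.05. In 16 L these were, with limma-voom, Sod2 (-0.69, adjusted p 0.0105) and Prdx6 (-0.049), and with read totals Sod1 (0.25). At 4 weeks limma-voom gave Prdx2 0.20, Prdx5 0.31 and Txnrd1 0.12, and leaving out HFD libraries 13 and 14 gave Prdx2 0.27 and Prdx5 0.29. At 16 weeks Prdx6 was 0.0066 with DESeq2 and 0.0042 with RLE size factors, Prdx3 -0.12 with limma-voom, Sod2 -0.22, Prdx3 -0.18 and Txnrd1 -0.36 with read totals, Txnrd1 -0.015 with at least 10 counts, and Prdx3 -0.0063 without CD libraries 1 and 2. Low weight gainers against 16-week HFD gave Prdx3 0.015 with limma-voom and 0.055 with read totals. Against 16-week CD they gave Prdx3 -0.084 and Txnrd1 0.037 with limma-voom, Prdx3 -0.12 with read totals, and Prdx1 -0.18, Prdx3 -0.16, Prdx5 -0.082 and Txnrd1 0.21 without CD libraries 1 and 2. The difference between diet effects gave Txnrd1 -0.053 with read totals. The cause was not tested.

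Without 1 library the values that crossed 0 ranged as follows. In 16 L, Sod1 ran from -1.28 to 0.31, Sod2 from -0.57 to 0.35 and Prdx6 from -0.024 to 0.90. At 4 weeks Prdx2 ran from -0.13 to 0.085, Prdx5 from -0.16 to 0.10 and Txnrd1 from -0.38 to 0.10, and at 16 weeks Prdx6 from -0.090 to 0.067 and Txnrd1 from -0.031 to 0.22. In low weight gainers Sod1 ran from -0.078 to 0.33 against 16-week HFD, and against 16-week CD Prdx1 ran from -0.02 to 0.36, Prdx2 from -0.25 to 0.093, Prdx3 from -0.071 to 0.18 and Sod2 from -0.21 to 0.077. For the difference between diet effects Prdx1 ran from -0.42 to 0.081.

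Group levels moved by over 1 SD under read totals in 22 of 70 cases. The settings without 16-week CD libraries 1 and 2 and without 4-week HFD libraries 13 and 14 were chosen after seeing the data. No paired analysis was possible because the groups compared share fewer than 2 replicate numbers, and the CD groups of 4 and 16 weeks, which share more, are not contrasted directly.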
